A study of Mus musculus with 8 samples.

Results

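Regions that lie at the ends of genes or inside exons, away from any transcription start site, were examined for acetylation of histone H3 at lysine 27 (H3K27ac) in microglial nuclei of WT mice and of mice lacking progranulin (GrnKO). Members were the rows of the deposited table on autosomes whose annotation was a transcript end (TTS), a 3' UTR or an exon, which lay more than 1000 bp from the nearest start site and which were not in a CpG island. This gave 6275 of 129304 listed regions. They comprised 2057 transcript-end, 1690 3' UTR and 2528 exon regions, each 800 bp wide. No H3K27ac value entered the choice. Of the 6275 members, 3161 carried enough tags to be tested.

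Both groups were C57BL/6 mice aged 2 years, perfused before the brains were taken. WT was the control genotype, and GrnKO mice carried the knockout of Grn. Each genotype had 2 H3K27ac libraries and 2 input libraries (sonicated chromatin without immunoprecipitation), and each replicate pooled sorted nuclei from 2 mice. Nuclei came from frozen hemibrains and were sorted for the myeloid factor PU.1, leaving out those with OLIG2 or NEUN. With 2 pools per genotype, p-values rest on the spread between pools, and fewer nuclei of a type cannot be told apart from less H3K27ac per nucleus.

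H3K27ac is laid down by the acetyltransferases p300 and CBP and marks active promoters and enhancers. Enhancers are found mostly in introns and between genes, but exons, 3' UTRs and the stretch past the polyadenylation site can also carry open, acetylated chromatin. Such regions may act on the gene that holds them, on a neighbour, or as an unannotated start site. Progranulin, the product of Grn, is a secreted protein that is delivered to lysosomes, where it is needed for normal degradation, and microglia express it strongly. In the text the gene whose transcript end, 3' UTR or exon gives a region its annotation is its host, and the gene whose start site is closest is its nearest gene.

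The letters of the member regions themselves were not read here. For the host genes, RefSeq windows of 300 bases around the start (GRCm38.p6, 250 before to 50 after) were searched on both strands for 3 motifs: TCACGTGA, an E-box of the kind bound by the lysosomal regulators TFEB and TFE3; GAGGAAGT, the core of PU.1 sites; and TGACTCA, the AP-1 site. Over all RefSeq genes, not hosts alone, the E-box stood in 0.974% of 32851 windows, the PU.1 letters in 3.20% and the AP-1 letters in 5.20%. Among 2117 windows of genes that host a tested member the shares were 1.56%, 3.59% and 4.35%. Among 136 windows of genes that host a member with higher H3K27ac in GrnKO, 3 held the E-box (2.21%), 3 the PU.1 letters (2.21%) and 4 the AP-1 letters (2.94%). Among 73 windows of genes that host a lower member, the numbers were 1, 3 and 1 (1.37%, 4.11% and 1.37%), and the 3 PU.1 windows belong to 2 genes. None of the 3 motifs contains another. Those for genes taken up below, plus the other E-box matches, are printed with the motif in capitals, 5′ to 3′ on the strand of the gene. They belong to hosts of higher members unless marked as lower.
Ctsd (chr7:142387908-142387937, minus strand, E-box): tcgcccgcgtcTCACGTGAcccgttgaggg
Bax (chr7:45466890-45466919, minus strand, E-box): agcgatgatgaTCACGTGActagtcctgcg
A330040F15Rik (chr19:12596641-12596670, minus strand, E-box): ctcaacacctaTCACGTGAggacatcagta
Tmc8 (chr11:117782268-117782297, plus strand, E-box, lower member): cggggttcctgTCACGTGAcccccacccca
Cd68 (chr11:69666301-69666330, minus strand, AP-1): taagttccgtgTGAGTCAgctgcctcattc
Cep95 (chr11:106789156-106789185, plus strand, PU.1): gcgcgtgctgcGAGGAAGTgctcctctgct
Fam110a (chr2:151980370-151980399, minus strand, PU.1, lower member): agctggagaccGAGGAAGTccagctggaag
Hrh2 (chr13:54192072-54192101, plus strand, PU.1, lower member): ggggcggggacGAGGAAGTgggtgctaggc
A match here is a description of the promoter and not of the region whose acetylation was measured.

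The 4 H3K27ac libraries held 15491642.5 to 20030832 tags. WT replicate 1 stood apart: 49.4% of its tags lay in listed regions, against 63.3% to 65.7% in the other 3. Values below are scaled tags, that is tags per 10000000 after correction by trimmed mean of M-values (TMM), and 3 tags correspond to 1.5 to 1.94 scaled tags before that correction. H3K27ac at the start sites of 8 microglial genes summed to 7274 and 7767 scaled tags in WT and to 6089 and 5885 in GrnKO. The sums for 5 myeloid lineage genes were also lower in GrnKO (3306 and 3416 against 3586 and 3949), those for 4 border macrophage genes overlapped (563 and 526 against 528 and 634), and 2 lymphocyte genes came to at most 2.74 in any library. Start-site regions of 3 endothelial genes summed to 216 and 235 in WT and to 379 and 418 in GrnKO, and S100a8, the only monocyte and neutrophil gene of 6 with a region, to 0 and 5.24 in WT and 20.4 and 18.7 in GrnKO. Start-site regions of 2 neuronal genes summed to 23.1 and 46.9 in WT and to 19.5 and 22.4 in GrnKO, while the sums for oligodendrocyte and astrocyte genes overlapped between genotypes. The part of such nuclei in the results below was not tested.

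H3K27ac at the members was low. In the median member, the 2 WT libraries gave 6.25 and 4.71 scaled tags and the 2 GrnKO libraries 4.81 and 4.61. The median over all listed regions was 9.69 to 11.3, and that of regions within 1000 bp of a start site 24.9 to 26.6. The 3 classes were ordered alike in all 4 libraries. The WT medians were 8.22 and 7.20 at 3' UTR regions, 7.04 and 4.71 at transcript ends and 5.48 and 3.67 at exons. Those of GrnKO were 7.35 and 7.15, 5.09 and 4.61, and 3.39 and 3.57 in the same order. Input gave a mean of 3.01 to 3.49 tags per member on the authors' scale, with medians of 0 to 1.04. At called members single input values reached 157. The strongest members stood far above these medians, as described below. Of each class, 57.9% of 3' UTR, 50.6% of transcript-end and 45.2% of exon regions passed the filter on low tags, against 62.4% of all regions.

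The levels on either side of the 1000 bp limit were as follows. Exon regions 1000 to 1250 bp from a start site, just inside the limit, numbered 175 with medians of 2.75 scaled tags in WT and 2.83 in GrnKO. The 237 just outside it, at 750 to 1000 bp, had 5.61 and 4.55. For transcript ends the 62 regions inside had 4.31 and 4.72 and the 67 outside 13.3 and 7.88, and for 3' UTRs the 31 inside had 13.3 and 18.9 and the 8 outside 6.85 and 4.01.

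In each class more members were called higher than lower in GrnKO, as over all tested regions. At transcript ends 53 of 1041 tested members were higher in GrnKO and 37 lower, at 3' UTRs 56 of 978 were higher and 26 lower, and at exons 57 of 1142 were higher and 25 lower (limma, Benjamini-Hochberg adjusted p below 0.05 over all 80728 tested regions). The background over all tested regions was 9.72% called, with 6.8% higher and 2.92% lower. The members together reached 8.04%, and the classes 8.65%, 8.38% and 7.18% in the order above, all a little under that background. Transcript ends had 5.09% higher and 3.55% lower, 3' UTRs 5.73% and 2.66%, and exons 4.99% and 2.19%. These shares are near the background and set none of the classes apart. The median log2 change was -0.07 in each of the 3 classes and 0.00 over all tested regions.

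**Figure D1:**
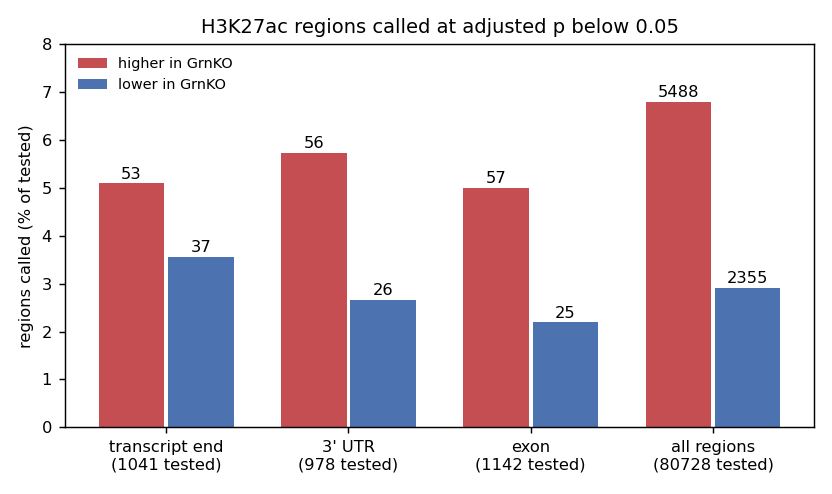
Share of tested regions called higher (red) or lower (blue) in GrnKO than in WT, in percent of the tested regions of each class and of all tested regions, with the number of regions above each bar. The 3 classes sit at 4.99% to 5.73% higher and 2.19% to 3.55% lower, beside 6.8% and 2.92% for all regions.

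These counts depended on single libraries and on the scaling. Without GrnKO replicate 1, 17 transcript-end, 10 3' UTR and 14 exon members were higher and 2, 4 and 2 were lower. Without GrnKO replicate 2 the numbers were 18, 16 and 16 higher and 3, 3 and 8 lower. Leaving out WT replicate 1 gave 89, 86 and 103 higher and 70, 59 and 71 lower, and leaving out WT replicate 2 gave 105, 108 and 124 higher and 74, 70 and 59 lower. In these 4 fits, where the lone library is assumed to vary like the others, 1.55%, 2.02%, 15.1% and 17.1% of members were called, against 1.65%, 2.32%, 16.0% and 17.7% of all tested regions. When only library totals set the scale, as the authors deposited the values, log2 changes of all tested regions shifted upward to a median of 0.22. Then 70, 78 and 75 members were higher and 4, 3 and 4 lower, so that the higher share of the calls rose from 58.9% to 94.6% at transcript ends, from 68.3% to 96.3% at 3' UTRs and from 69.5% to 94.9% at exons. Of the 166 higher members 165 remained called with that scaling, and of the 88 lower members 11.

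Members that gained and members that lost H3K27ac started from different levels. The 166 higher members had a median of 21.8 scaled tags in WT and 76.8 in GrnKO, with log2 changes of 0.61 to 4.00. The 88 lower members had a median of 168 in WT and 93.9 in GrnKO, and log2 changes from -2.24 to -0.46. The same held over all tested regions, where regions called higher had a WT median of 29.4 and regions called lower of 160. By class, the WT medians of higher members were 21.9, 20.0 and 25 at transcript ends, 3' UTRs and exons, and those of lower members 179, 166 and 149. These levels follow in part from the calling: a loss could not be called where WT was near 0, and regions low in WT were tested only through GrnKO.

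**Figure D2:**
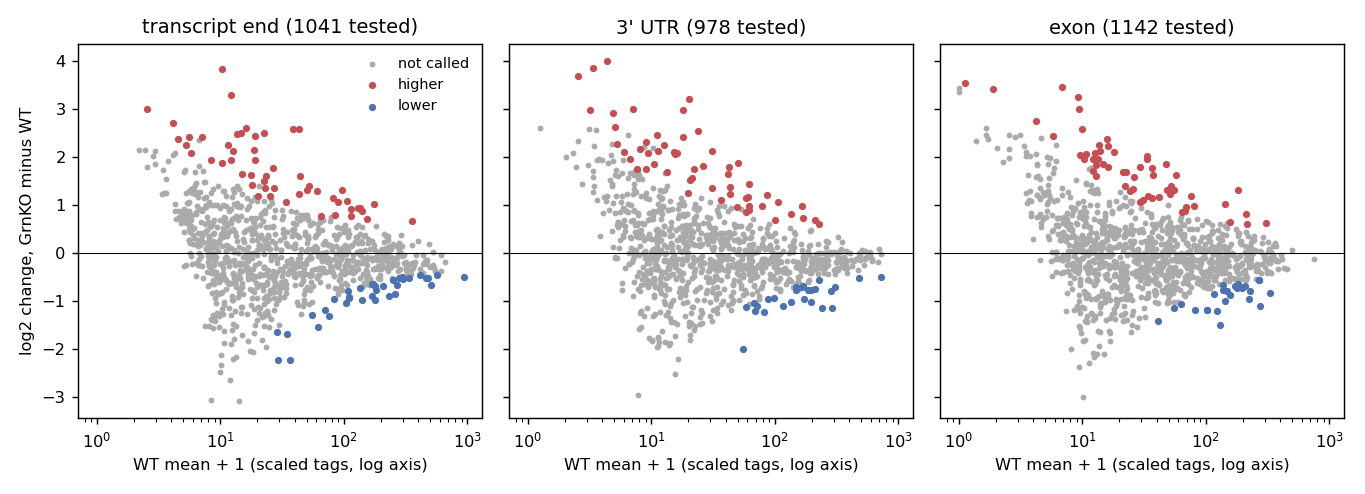
Mean WT level (scaled tags plus 1, log axis) against the log2 change, GrnKO minus WT, for every tested member, 1 panel per class, with called members in red (higher) and blue (lower). Higher calls reach from below 10 to above 100 scaled tags in WT and lower calls range from 28 to 934, with a median of 168.

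Transcript-end regions with the smallest p among gains lay past the ends of Pgpep1, Nckap5l, Psmb6 and Usp37. Members named by p, here and in the next paragraphs, had to have groups that do not overlap, so that separation is no result. The region chr8:70645671-70646471 follows the last exon of Pgpep1, a peptidase that removes N-terminal pyroglutamate, and its nearest start is that of Gdf15, a stress-induced cytokine of the TGF-β family. It had 43.8 and 40.6 scaled tags in WT and 293 and 225 in GrnKO, a log2 change of 2.58 ± 0.22 (SE, adjusted p = 2.49e-06). Behind Nckap5l, chr15:99420968-99421768, with Tmbim6 (an inhibitor of cell death in the endoplasmic reticulum) as nearest gene, had 9.78 and 12.8 in WT and 120 and 117 in GrnKO. Both GrnKO pools were thus several-fold above both WT pools. At the end of Psmb6, a catalytic subunit of the proteasome, chr11:70528412-70529212 had 18 and 18.3 in WT and 106 and 100 in GrnKO (log2 2.44 ± 0.30). The region past Usp37, a deubiquitinase, at chr1:74434353-74435153, whose nearest gene is Vil1 (an actin-bundling protein), had 17.6 and 12.8 in WT and 86.3 and 109 in GrnKO (log2 2.61 ± 0.33). All 4 stayed called without any 1 library, with adjusted p of at most 0.0180.

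Losses at transcript ends with the smallest p had smaller log2 changes. Past Mymk, whose product drives myoblast fusion, chr2:27061206-27062006 had 169 and 190 scaled tags in WT and 89.9 and 90.0 in GrnKO (log2 -0.99 ± 0.20, adjusted p = 0.00343). Near Tspan32, a tetraspanin of blood cells, chr7:143021124-143021924 had 479 and 543 in WT and 344 and 299 in GrnKO (log2 -0.67 ± 0.13). The end of Fbxl13 (nearest gene Fam185a, chr5:21482618-21483418) had 230 and 290 in WT and 143 and 140 in GrnKO, and that of Ccdc97 (chr7:25710661-25711461) 196 and 268 in WT and 134 and 112 in GrnKO. Unlike the gains, these 4 calls ended with the authors' scaling, with adjusted p from 0.0918 to 0.377. They also ended without GrnKO replicate 2 (0.0595 to 0.135), and those at Mymk and Fam185a without GrnKO replicate 1 (0.0723 for both).

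At 3' UTRs the gain with the smallest p was inside Pgpep1 itself, while fitted log2 changes reached 4.00 (Gcfc2, with 0 and 6.81 scaled tags in WT). Its final exon, chr8:70646614-70647414, rose from 16.4 and 22 scaled tags in WT to 199 and 169 in GrnKO (log2 3.20 ± 0.28, adjusted p = 2.82e-06). The 3' UTR of Tmem154, a transmembrane protein, at chr3:84703104-84703904 had 19.6 and 14.7 in WT and 174 and 114 in GrnKO (log2 2.98 ± 0.31). In Itpkb, a kinase that phosphorylates inositol trisphosphate, chr1:180422948-180423748 (nearest gene Stum) had 23.9 and 22 in WT and 149 and 128 in GrnKO (log2 2.54 ± 0.27). In these 3 regions too, the separation of the pools follows from the choice. The 3' UTR of Syt11, a synaptotagmin of vesicle traffic, at chr3:88745607-88746407 had 49.3 and 49.8 in WT and 177 and 194 in GrnKO (log2 1.88 ± 0.22). None of these 4 calls ended with the authors' scaling or without a library.

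The 3' UTR loss with the smallest p belonged to Acvr2b, the type 2B activin receptor. At chr9:119435622-119436422 (nearest gene Exog) WT had 246 and 337 scaled tags and GrnKO 126 and 132 (log2 -1.15 ± 0.18, adjusted p = 0.000516), and this call held in all 11 other fits. Ccl24, a chemokine for eosinophils, lost most of its 3' UTR signal: chr5:135570285-135571085 had 60.2 and 49.0 in WT and 15.8 and 10.1 in GrnKO (log2 -2.01 ± 0.40). It was no longer called without GrnKO replicate 2 (adjusted p = 0.0635). The region chr1:74368699-74369499, with Slc11a1 (a metal transporter of phagosomes) as nearest gene, had 257 and 311 in WT and 166 and 158 in GrnKO. In Fam110a, chr2:151969209-151970009 (nearest gene Mir1953) had 151 and 189 in WT and 84.0 and 90.0 in GrnKO. For these last 2 the call ended with the authors' scaling (adjusted p = 0.223 and 0.123), without GrnKO replicate 1 (0.0762 and 0.125) and without GrnKO replicate 2 (0.0938 and 0.0664).

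Among exon regions, Cd68 had the smallest p. Cd68 encodes a glycoprotein of late endosomes and lysosomes of macrophages. Its exon region, chr11:69664361-69665161 in exon 5 of 6, had 169 and 192 scaled tags in WT and 471 and 430 in GrnKO (log2 1.31 ± 0.15, adjusted p = 2.53e-05). The other 3 exon gains started from lower levels. In exon 9 of 24 of Adam8, a membrane metalloprotease, chr7:139988065-139988865 (nearest gene Mir7062) had 7.43 and 8.90 in WT and 82.3 and 89.0 in GrnKO (log2 3.25 ± 0.38). Its input on the authors' scale was 0 and 17.64 in WT and 2.08 and 0 in GrnKO. In Uap1, an enzyme that makes UDP-N-acetylglucosamine, chr1:170148989-170149789 had 51.2 and 42.4 in WT and 188 and 154 in GrnKO (log2 1.85 ± 0.23). Exon 6 of 8 of Pparg, a nuclear receptor of lipid metabolism, at chr6:115462796-115463596 had 3.91 and 7.86 in WT and 70.2 and 73.1 in GrnKO (log2 3.46 ± 0.45). No library or scaling ended the call at any of them. The Pparg region, low in WT, passed the filter on low tags only through GrnKO.

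Exon losses with the smallest p were at Serinc3 and Cd14. In Serinc3, a membrane protein, chr2:163638907-163639707 (nearest gene 0610039K10Rik) had 140 and 122 scaled tags in WT and 51.5 and 39.9 in GrnKO (log2 -1.50 ± 0.25, adjusted p = 0.000743). The exon region of Cd14, the co-receptor for lipopolysaccharide, at chr18:36725247-36726047 had 312 and 232 in WT and 120 and 129 in GrnKO (log2 -1.10 ± 0.18, adjusted p = 0.000813). Both calls held in all 11 other fits. Kctd12, an auxiliary subunit of the GABA-B receptor with Mir5130 as nearest gene, had 347 and 319 in WT and 170 and 201 in GrnKO at chr14:102981084-102981884. C1rl, a relative of complement C1r, with C1ra as nearest gene, had 201 and 245 in WT and 112 and 116 in GrnKO at chr6:124508099-124508899. These last 2 were no longer called with the authors' scaling (adjusted p = 0.158 and 0.107) or without GrnKO replicate 1 (0.105 and 0.0698).

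**Figure D3:**
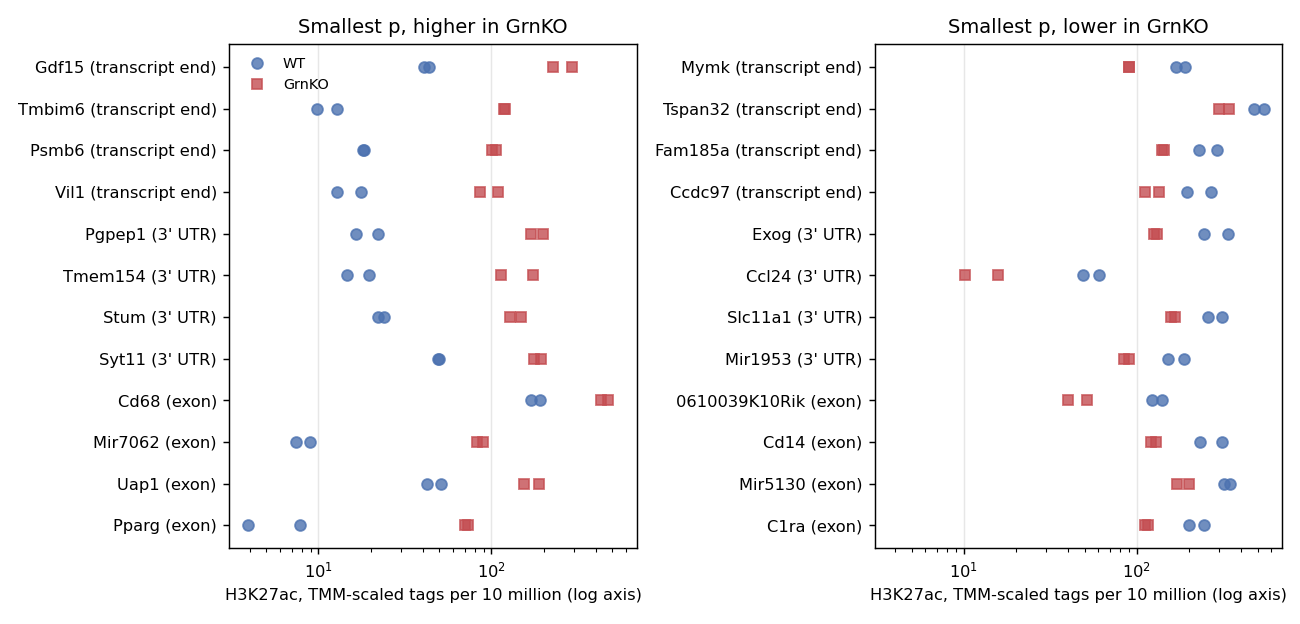
H3K27ac in scaled tags (log axis) in each of the 2 WT (blue circles) and 2 GrnKO (red squares) libraries for the 4 members of each class with the smallest p in each direction, labelled by the nearest gene. The rule admitted only members whose groups do not overlap, so the separation in each panel follows from it, and GrnKO values in the left panel start at 70.2 (Pparg).

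The members with the most H3K27ac changed less. Of the 3 strongest of each class, the transcript end of Coro1c, an actin regulator, was the only one called. At chr5:113842125-113842925, near Selplg (the P-selectin ligand), it had 836 and 1032 scaled tags in WT and 646 and 672 in GrnKO (log2 -0.49 ± 0.11, adjusted p = 0.00877), with no call under the authors' scaling (0.664), without GrnKO replicate 1 (0.197) or without GrnKO replicate 2 (0.108). The others at transcript ends were Tifab, with 637 and 676 in WT and 550 and 605 in GrnKO, and 1700110C19Rik, with 507 and 710 in WT and 571 and 588 in GrnKO. At 3' UTRs they were 2 overlapping regions of Fam53b, of which the stronger had 655 and 744 in WT and 742 and 729 in GrnKO, and 1 of Map3k9, a kinase, with 634 and 738 in WT and 569 and 634 in GrnKO. Genotypes overlapped at 1700110C19Rik, at Fam53b and, by less than 1 scaled tag, at Map3k9. Exons were led by Tbc1d5 (nearest gene Btg3), with 682 and 809 in WT and 618 and 751 in GrnKO, and by Rab3il1, with 444 and 548 in WT and 487 and 547 in GrnKO. Both of these regions overlapped between genotypes too. Sall1, a transcription factor that maintains microglial identity, had 424 and 487 in WT and 330 and 394 in GrnKO at an exon (log2 -0.33 ± 0.14, adjusted p = 0.144, and 0.0202 without WT replicate 1).

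Some called members lay side by side. Joined when within 10000 bp, the 166 higher members formed 127 loci, of which 101 held 1 member and 9 held 3 or more. The 88 lower members formed 69 loci, of which 52 held 1 and 2 held 3 or more. Some of these neighbours overlap and share tags, so the counts of called members are not counts of separate loci. The loci of 3 or more gains were at Sgk1 (5 members), Syt11 (4), Pgpep1 (4), and, with 3 each, Usp37 with Vil1, Itpkb with Stum, Enpp1, Dusp3, Smurf2 with Cep95, and Myo16. The loci of 3 losses were at Cd14 and Acvr2b.

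Sgk1, a kinase induced by serum and glucocorticoids, is described because it held the most called members. Tested regions within 1000 bp of its start sites had log2 changes of 0.22 to 1.04, from levels of 64.5 scaled tags or more in each WT library. Those with log2 changes of 0.59 to 1.04 were called higher (adjusted p = 0.00547 to 0.0471, limma), and the others were not. Farther upstream 1 intergenic region, chr10:21846799-21847599, was called higher (log2 1.96, adjusted p = 0.00253), and the other tested regions there were not. Toward the end of the gene the WT level was lower and the fitted change larger, also in intron regions that are no members, of which the 3 nearest the exon member were called with log2 changes of 1.78, 2.05 and 2.02. The exon region (chr10:21997626-21998426) had 10.2 and 13.4 in WT and 62.8 and 44.3 in GrnKO, a log2 change of 2.09 ± 0.40. The 2 3' UTR regions had log2 changes of 2.07 and 2.26. The farther transcript-end region (chr10:22000330-22001130) had 5.48 and 0.782 in WT and 22.6 and 20.1 in GrnKO, a log2 change of 2.72 ± 0.75 (adjusted p = 0.0284), and its WT values are near or under the limit of 3 tags, so that it was tested through GrnKO. Against the region nearest the start, none of the 5 differences passed the test (adjusted p = 0.242 to 0.321, limma over all member and promoter pairs). All 5 calls ended without either GrnKO library, with adjusted p of 0.0839 to 0.411 without replicate 1 and 0.0505 to 0.306 without replicate 2.

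Cd14 held 3 called losses. The region at its start site had 233 and 238 scaled tags in WT and 165 and 184 in GrnKO (log2 -0.44 ± 0.17, adjusted p = 0.109). An exon region 671 bp from the start, too close to be a member, was called lower (log2 -0.59 ± 0.15, adjusted p = 0.0161), as was an intergenic region past the gene (log2 -0.97 ± 0.20, adjusted p = 0.00522). The exon region described above had a log2 change of -1.10. At the transcript end, chr18:36724475-36725275 had 76.3 and 45.3 in WT and 21.5 and 17.5 in GrnKO (log2 -1.55 ± 0.37). The region beyond it, chr18:36724044-36724844, had 50.5 and 20.7 in WT and 6.50 and 5.77 in GrnKO (log2 -2.23 ± 0.55). GrnKO was below WT in each library at the start-site region too. The 3 members were taken up as called losses, so their separation is no result. Differences of the 3 members from the start-site region did not pass the test (adjusted p = 0.321 to 0.440, limma). Both transcript-end calls ended without GrnKO replicate 1 (adjusted p = 0.0751 and 0.0985) and without GrnKO replicate 2 (0.125 and 0.106), and the second also without WT replicate 1 (0.0909).

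Gains at Gdf15 and Pgpep1 lay at the end of Pgpep1, inside Gdf15 and between the genes. The region nearest the start of Pgpep1 had 27.8 and 23.3 scaled tags in WT and 33.1 and 32.3 in GrnKO (log2 0.35 ± 0.37, adjusted p = 0.624), and the other 2 tested within 1000 bp of that start had log2 changes of 0.92 and 1.24, with no call (adjusted p = 0.15 and 0.38). The 2 transcript-end members and the 2 3' UTR members had log2 changes of 2.58, 2.58, 3.20 and 1.64. An intron region of Gdf15, chr8:70630497-70631297, had 7.43 and 8.64 in WT and 58.8 in both GrnKO libraries (log2 2.73 ± 0.42, adjusted p = 0.000359), a change as large as those of the transcript-end members. The 5' UTR region of Gdf15, like the intron region no member, had 8.22 and 10.7 in WT and 37.9 and 38.8 in GrnKO (log2 1.92 ± 0.45, adjusted p = 0.0102). In the 3 intergenic regions called higher, the log2 changes were 1.69, 0.71 and, next to the transcript-end members, 2.55. The exon member inside Gdf15 had 37.5 and 33.0 in WT and 68.2 and 53.5 in GrnKO (log2 0.76 ± 0.30) and did not pass the test (adjusted p = 0.128). The weaker of the 3' UTR members, at chr8:70649130-70649930, was no longer called without GrnKO replicate 1 (adjusted p = 0.138). Differences of the 4 Pgpep1 members from the region nearest its start did not pass the test (adjusted p = 0.121 to 0.341, limma).

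In Syt11 all 4 3' UTR members rose, with log2 changes of 1.51 to 1.88, while the tested region nearest its start had 28.9 and 20.7 scaled tags in WT and 37.3 and 45.4 in GrnKO (log2 0.73 ± 0.36, adjusted p = 0.232), and the differences from it did not pass the test (adjusted p = 0.299 to 0.472, limma). Of these calls, those at the 2 regions farthest from the start ended without GrnKO replicate 1 (adjusted p = 0.185 and 0.424), and 1 of them also without GrnKO replicate 2 (0.0729). In Dusp3, a phosphatase, 3 3' UTR members rose by 0.98, 1.20 and 1.43 on the log2 scale, from a WT level of at least 50.8 scaled tags in each library. The call on the middle value ended without GrnKO replicate 1 (0.0558). In Acvr2b all 3 members fell, with log2 changes of -1.15, -1.15 and -1.02, and the last call ended without GrnKO replicate 1 (0.172) and with the authors' scaling (0.0781).

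**Figure D4:**
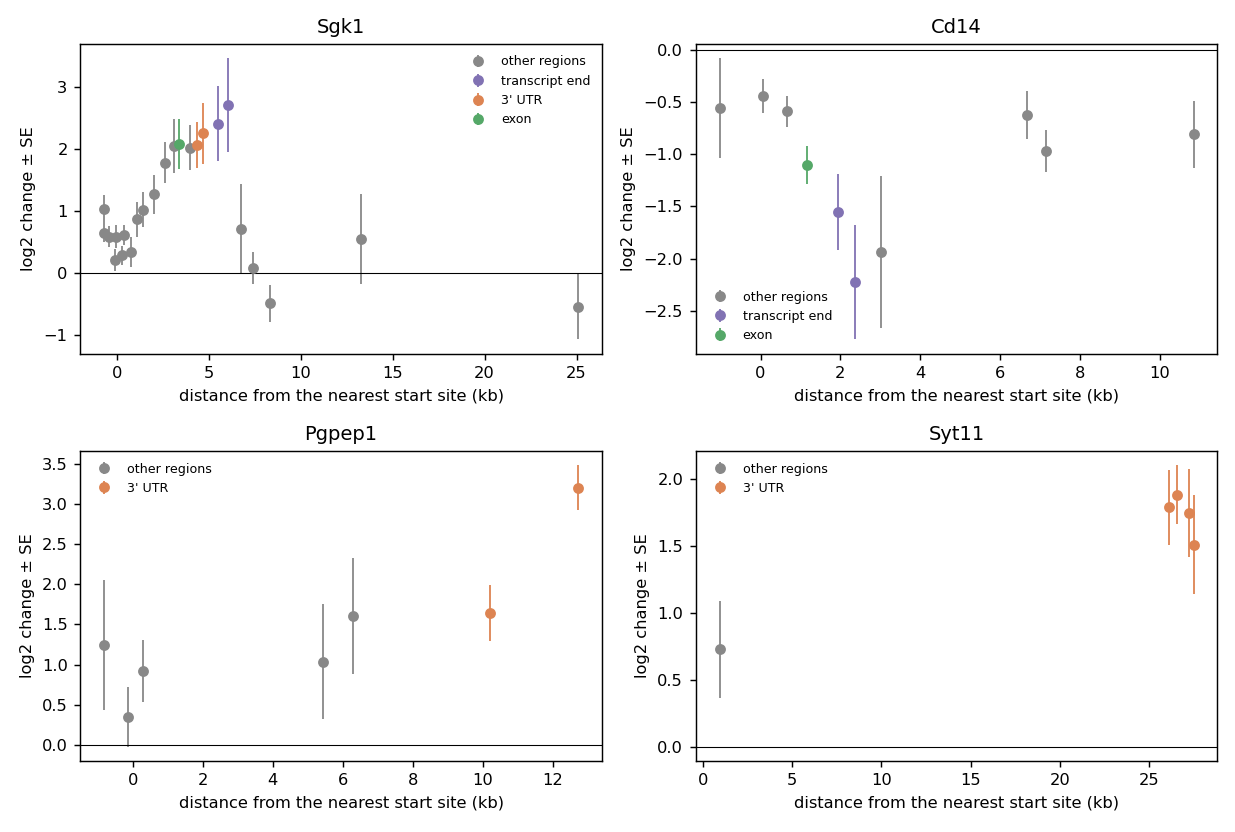
Log2 change, GrnKO minus WT, with its SE, for every tested region assigned to Sgk1, Cd14, Pgpep1 and Syt11, against its distance in kb from the nearest start site of that gene (from -1.5 to 30 kb, regions of the member classes in colour, all others grey). At Sgk1 and Cd14 the members at the gene end lie farther from 0 (2.72 and -2.23) than the start-site regions, and at Pgpep1 and Syt11 the coloured 3' UTR regions lie above the grey ones nearest the start.

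Each member was also set beside the promoter of its host gene. Of the tested members, 2417 had a tested region within 1000 bp of a start site of the host. Of 131 higher members in such pairs, the promoter region was called higher for 19, not called for 112 and lower for 0. Their median log2 change was 1.64 and that of the promoter regions 0.35. Of 72 lower members, the promoter region was called lower for 5, higher for 2 and not called for 65, with medians of -0.85 and -0.27. Over all tested regions within 1000 bp of a start site, 3.57% were called higher and 1.61% lower. Among the pairs whose promoter region was not called, it had the sign of the member in 73 of 112 and 54 of 65. Member and promoter values come from the same libraries, and the agreement over all pairs was not counted, so these counts have no baseline. Several members share a promoter region. The members had been selected for a change and the promoters had not, so the larger size at the members is partly built into this contrast.

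The difference between member and promoter was therefore tested over all 2417 pairs, chosen or not. None of the pairs was called (0.0% of pairs, limma on log2 member minus log2 promoter), with 318 at an unadjusted p below 0.05. The smallest adjusted p was 0.0860. It was shared by Pparg, where the difference was 3.41 ± 0.35, and Hyal1, a lysosomal hyaluronidase, where it was 3.30 ± 0.33. The Hyal1 region, chr9:107579140-107579940 in its 3' UTR, had 2.35 and 2.10 scaled tags in WT and 23.8 and 24.9 in GrnKO. Its WT values lie near the limit of 3 tags and it could be tested only through GrnKO, so the fitted difference is imprecise and no bound. Its promoter region had means of 7.58 in WT and 5.80 in GrnKO. The Pparg region too could be tested only through GrnKO. Over all pairs the median difference was -0.01.

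Promoter and member rose together at some genes. At Ms4a7, a membrane protein of macrophages, the 3' UTR member had 32.9 and 17.5 scaled tags in WT and 89.4 and 84.2 in GrnKO (log2 1.81) and the promoter a log2 change of 1.80. At Tmem154 the values were 2.98 and 2.50, and at Vim, the intermediate filament vimentin, 2.43 and 2.00. Mt1, a metal-binding metallothionein, had 1.62 at its exon and 0.82 at the promoter. The Coro1c end regions near Selplg went the other way: both fell by 0.49 on the log2 scale while the Coro1c promoter rose by 0.91 (adjusted p = 0.0441). Without GrnKO replicate 1 the member calls at Ms4a7 (adjusted p = 0.0744) and Vim (0.617) ended, and without GrnKO replicate 2 that at Vim (0.115). These genes were chosen after their values were seen.

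**Figure D5:**
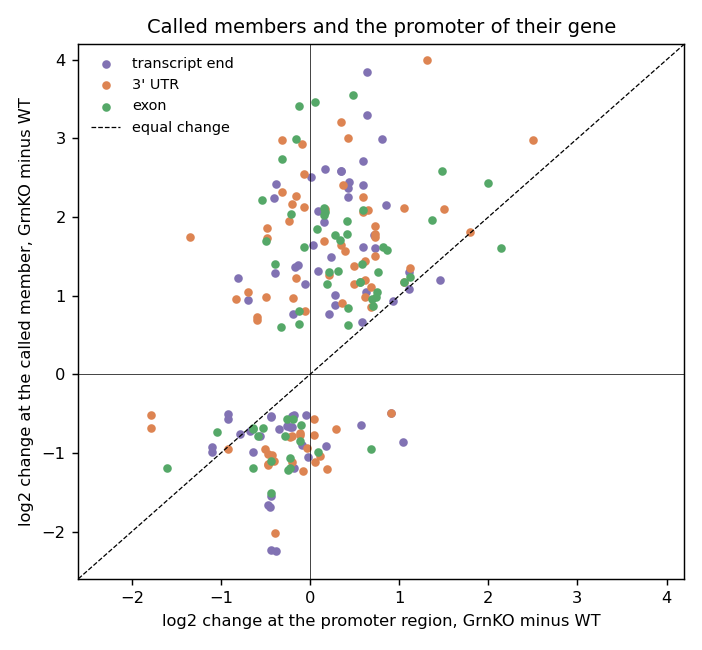
Log2 change at each called member that has a tested promoter region of its host gene against the log2 change at that promoter region, GrnKO minus WT, coloured by class, with a dashed line of equal change. Higher members (131 points) lie mostly above the line, where the member changed more, with promoter changes around their median of 0.35, and only members called in the test are drawn.

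The pathway lists were read by nearest gene. The lysosome list of 96 genes had 56 tested members at 28 genes, of which 5 rose and 0 fell. All 5 gains were in exons: Cd68, 2 regions of Ctsd (the protease cathepsin D), Slc17a5 (the sialic acid exporter) and Cd63 (a tetraspanin of late endosomes). The stronger Ctsd region, chr7:142385190-142385990, had 308 and 303 scaled tags in WT and 489 and 452 in GrnKO (log2 0.62 ± 0.13, adjusted p = 0.00504). Slc17a5 had 64.9 and 72.3 in WT and 143 and 126 in GrnKO (log2 0.96 ± 0.22), and Cd63 30.9 and 64.4 in WT and 112 and 111 in GrnKO (log2 1.30 ± 0.30). The other 51 members did not pass the test, and the median of the list was -0.11, against the sign of its calls, or 0.11 with the authors' scaling. The share of tested members that rose was 8.93%, and over all tested regions of these genes 17.0% rose (152 of 895) and 3.02% fell. Without GrnKO replicate 1, and without GrnKO replicate 2, the Cd68 call alone was left. Without WT replicate 1 there were 10 higher and 2 lower, without WT replicate 2 there were 8 and 3, and with the authors' scaling 10 and 0. In limma 6 members were lower at an unadjusted p below 0.05, and edgeR and DESeq2 called 0 lower.

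Genes of the disease-associated microglial state, which microglia switch on around damage, had 18 tested members. Of these 4 rose and 0 fell, and all 4 are Cd68, Ctsd and Cd63 regions already counted among the lysosomal genes. The 22.2% that rose stood beside 27.9% of all 437 tested regions of these genes, of which 0.229% fell. The median was 0.97 and 15 of 18 changes were above 0, against a median of 0.46 over all regions of these genes. Most of these calls ended without either GrnKO library, where calls over all tested regions fell as well. The list median was 0.84 without GrnKO replicate 1 and 1.15 without GrnKO replicate 2. It was 0.76 without WT replicate 1 and 1.08 without WT replicate 2. With the authors' scaling 7 members rose and 0 fell, with a median of 1.19. The 0 losses stood beside 0 at an unadjusted p below 0.05 in limma, and edgeR and DESeq2 also called 0.

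Homeostatic genes, which resting microglia express, had 72 tested members, of which 1 rose and 6 fell. These are 1.39% and 8.33%, beside 2.99% higher and 9.73% lower of all 1038 tested regions of these genes. The losses were at Rhob (a small GTPase), Cst3 (cystatin C, a protease inhibitor), the purinergic receptor gene P2ry12 with P2ry13 as nearest gene, Cx3cr1 (the fractalkine receptor), and the pair in Coro1c near Selplg. Rhob had 102 and 104 scaled tags in WT and 45.5 and 53.8 in GrnKO at its transcript end, chr12:8497148-8497948 (log2 -1.05 ± 0.25, adjusted p = 0.0118). The 3' UTR of Cst3 had 72.7 and 68.4 in WT and 33.7 and 31.2 in GrnKO (log2 -1.10). Cx3cr1 had 189 and 169 in WT and 92.5 and 131 in GrnKO at its end (log2 -0.70). The gain was in the 3' UTR of Col15a1, a collagen, with Tgfbr1 as nearest gene, at 214 and 238 in WT and 344 and 345 in GrnKO (log2 0.61 ± 0.15). The median was -0.33, and 58 of 72 changes were below 0, against a median of -0.17 over all regions of these genes. With the authors' scaling the median was -0.11 and 0 of the 6 losses were called, and 0 were called without either GrnKO library. Without WT replicate 1 there were 9 losses and without WT replicate 2 there were 16. The gain ended without GrnKO replicate 1 (adjusted p = 0.223) and without GrnKO replicate 2 (0.192). The summed microglial start-site signal given above was lower in GrnKO as well, and its part in this was not tested.

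The remaining lists gave few calls. Of 18 tested members near genes of lipid handling, 1 rose (Pparg, tested only through GrnKO) and 0 fell. The median was 0.01, with 2 lower at an unadjusted p below 0.05 in limma. That is 5.56% higher, beside 16.7% of the 442 tested regions of these genes. Without WT replicate 1 the counts were 4 higher and 2 lower, without WT replicate 2 they were 3 and 0, and without either GrnKO library 1 and 0. Of 31 near genes of the inflammatory response, 0 rose and 3 fell (9.68%), all of them Cd14 regions, with 4 higher at an unadjusted p below 0.05, beside 3.72% higher and 4.22% lower of the 403 tested regions of these genes. Without WT replicate 2 there were 4 higher and 3 lower, without WT replicate 1 there were 1 and 2, and without either GrnKO library 0 and 1. Antigen presentation had 4 tested members with 0 calls, 0 at an unadjusted p below 0.05 and 2 changes on each side of 0. Of the 94 tested regions of these genes, 1.06% were higher and 4.26% lower. In these 3 lists edgeR and DESeq2 called as many members higher and lower as limma did. In edgeR and DESeq2, 1 of the 4 antigen presentation changes was above 0.

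Grn itself had 3 members at its end, 2 transcript-end regions and an exon region of the adjoining gene Fam171a2. In none did a library exceed 7.04 scaled tags, and none was tested. At chr11:102437294-102438094 WT had 7.04 and 1.31 and GrnKO 2.83 and 2.54. These values do not check the allele. Within 10 Mb of Grn lay 176 members, of which 93 were tested, 6 called higher and 2 lower (8.60%), beside 9.72% of all tested regions.

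Gains were called at different shares by distance to the nearest start site. At transcript ends 2.93% of tested members within 5000 bp were higher, 4.94% of those at 5000 to 20000 bp and 10.2% of those farther away. At 3' UTRs the shares were 3.50%, 4.53% and 9.69%. Exons did not follow, with 5.50%, 3.75% and 5.70%. Over all regions the shares were 6.43%, 7.99% and 8.65%. Losses by the same distances were 3.41%, 3.82% and 3.23% at transcript ends, 2.87%, 4.00% and 0.692% at 3' UTRs and 1.67%, 3.22% and 1.71% at exons, beside 3.43%, 3.43% and 3.36% of all regions. The farthest 3' UTR share rests on 2 of 289 members, and these differences were not tested. The host was also the nearest gene for 53.0% of transcript-end, 46.0% of 3' UTR and 67.2% of exon members. Thus for 82 of the 166 higher and 36 of the 88 lower members the nearest gene is not the host.

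Most exon members, 65.6%, lay in internal exons and 26.4% in the last exon, and 4.00% each in the first exon and in genes of a single exon. Last exons had 18 higher and 10 lower among 269 tested members, and internal exons 36 and 13 among 797, or 10.4% and 6.15% called, beside 9.72% of all tested regions. Of 35 tested members in genes of a single exon 4 were called (11.4%), and of 41 in first exons 1 (2.44%). These shares were not tested against each other. Of the 3' UTR members 99.9% lay in the final exon. Centres of transcript-end members fell inside the RefSeq gene span in 13.5% of cases and within 1000 bp of it in 99.7%, which places most of them just past the gene. Overlap with another listed region was found for 43.5% of members, against 46.8% of all regions.

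RefSeq start sites that the table's annotation did not use fell in 42 members, 3 of them called. Some of the 42 were not tested, and 3 calls are too few to set apart from the 9.72% called over all tested regions. A start of Gm16578, on the minus strand, lay in both transcript-end members of Hrh2, a histamine receptor gene. The first of these, chr13:54222683-54223483, had 382 and 441 scaled tags in WT and 279 and 320 in GrnKO (log2 -0.46 ± 0.14, adjusted p = 0.0485), and the call ended with the authors' scaling (0.705). The third, an exon of Zbtb8a at chr4:129354024-129354824, holds 2 starts of LOC108168979. It had 0 and 0.261 scaled tags in WT and 15.8 and 9.22 in GrnKO. The WT libraries were at or under the 3-tag limit there, so the fitted change gives no bound.

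Summed over each class, H3K27ac was nearly the same in both genotypes. Transcript ends summed to 75702 ± 1723 scaled tags in WT (mean ± SD, n = 2) and 72161 ± 1392 in GrnKO, 3' UTRs to 72198 ± 1893 and 69022 ± 880, and exons to 74610 ± 906 and 72099 ± 1933. The ratios of GrnKO to WT were 0.953, 0.956 and 0.966. The exact two-sided permutation test gave p = 0.333 for each, the smallest that 2 against 2 libraries allow. With the authors' scaling the ratios were 1.11, 1.11 and 1.12, so the direction turned. Regions that overlap no other had ratios of 1.01 at transcript ends and 1.01 at 3' UTRs. Input sums on the authors' scale gave ratios of 1.03, 1.03 and 0.996.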

How the data were processed

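H3K27ac and input ChIP-seq libraries of sorted microglial nuclei were compared between 2 WT and 2 GrnKO pools. Per the file headers, the deposited values are a signal: tags counted in 800 bp regions, which the header ties to merged reproducible ATAC-seq peaks, and scaled by the authors to 10000000 tags per library. The submitters' processing notes name Bowtie2, HOMER, DESeq2 and the build mm10, without roles, and coordinates are given as deposited. How duplicate reads were handled is not given in the sources used here. Values times library totals gave whole read ends for 100% of values (within 0.1 of a whole end), at 2 ends per tag.

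Regions were kept by edgeR's filterByExpr on recovered tags (minimum 10), scaled by TMM (factors 0.825 and 1.04 in WT, 1.08 and 1.08 in GrnKO) and tested with limma (lmFit, eBayes with trend) on log2(scaled tags + 1), genotype as the only term, adjusted by Benjamini-Hochberg over 80728 regions at 0.05. A change on this scale understates that of low regions. R 4.3.3, limma 3.58.1, edgeR 4.0.16 and DESeq2 1.42.0 were used, and the fits were tested on simulated data. The edgeR and DESeq2 tests ran on recovered read ends. Class sums were compared by an exact two-sided permutation test.

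Host genes came from RefSeq transcript names in the annotation, matched for 6255 of 6275 members. The text names, per class and direction, the 4 members with the smallest p (1 per nearest gene, groups not overlapping), the 3 with the highest mean, every Grn member, and up to 4 called members of each of 6 gene lists with the smallest p, and other genes were chosen after their values were seen. Members and lists were chosen with earlier results of these data known. Reads carry no molecular identifiers here, so tag limits cover counting error only. Samples with the same replicate number were different mice, and their deviations from the genotype means correlated at 0.03 over tested regions, so the numbers were not taken as pairs.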

Additional observations from a re-analysis of the deposited data

How the results depend on the processing

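Counts of called members are given for transcript ends, 3' UTRs and exons in that order. With all 4 libraries and TMM they were 53, 56 and 57 higher and 37, 26 and 25 lower. Leaving out 1 library in turn gave 17 to 105, 10 to 108 and 14 to 124 higher, 2 to 74, 3 to 70 and 2 to 71 lower, and median log2 changes from -0.081 to -0.036, -0.088 to -0.024 and -0.106 to -0.029. With the authors' scaling the lower counts were 4, 3 and 4 and the medians 0.15, 0.15 and 0.14. The class sums then turned, with ratios of GrnKO to WT of 1.11, 1.11 and 1.12, and they also turned in regions overlapping no other listed region at transcript ends (1.01) and 3' UTRs (1.01). The cause was not tested. Without the filter the lower counts were 19 at transcript ends and 15 at exons, with more regions to adjust over. The medians were -0.093, -0.102 and -0.104 in the edgeR quasi-likelihood test and -0.098, -0.107 and -0.109 in DESeq2. An adjusted p below 0.1 gave 86 and 90 higher at 3' UTRs and exons and 73, 56 and 56 lower, and a change of at least 2-fold left 9, 11 and 9 lower. Regions that overlap no other held 29, 27 and 21 higher and 17, 8 and 7 lower, with medians of -0.042 at transcript ends and -0.0091 at 3' UTRs. Beyond 5000 bp from a start site 23 and 17 were lower at transcript ends and 3' UTRs, 34 were higher at exons, and the transcript-end median was -0.018. The last 2 settings hold fewer regions by construction. DESeq2 size factors, a pseudocount of 5 and leaving out regions within 10 Mb of Grn kept these counts within 1.5 times and the medians within the spread between libraries.

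The replicate numbers did not pair the samples. With the replicate number as a block, 77, 80 and 86 members were higher and 68, 49 and 52 lower, and all 254 members called without the block were called.

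Of the 42 tested members named by rule, which takes at most 4 from a gene list, no call changed direction in any of the 11 other fits. The authors' scaling ended 11 calls, leaving out GrnKO replicate 1 ended 16 and leaving out GrnKO replicate 2 ended 17. The difference between member and promoter, a test added after seeing the data, gave 0 calls among 2417 pairs with the nearest promoter region, with the strongest promoter region and without any 1 library, with 140 to 476 pairs at an unadjusted p below 0.05. Regions below about 10 tags were not tested, which left out 48576 regions, 3114 of them members.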
